A study of Mus musculus with 12 samples.

Results

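Mouse macrophages given the STING agonist CMA lost most of the mRNA of a group of genes that were also low when the STING inhibitor C-178 was present. Described here are 7 such genes, Kcnj2, Gpr183, Nuak1, Pdgfb, St8sia4, Kctd12b and Utp14b, out of 24062 gene entries in the deposited table. They were chosen on measured values, as large falls of C-178 plus CMA against C-178 alone, with no stated threshold. Their values in that comparison are therefore a description, given without a test. The test reported for them is CMA against no stimulation, whose 6 libraries the stated rule did not use. That test is not fully independent of the choice. Earlier results of these data were known, and the spread was estimated over all 12 libraries, those of the choice included.

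Primary bone marrow-derived macrophages of wild-type C57Bl/6 mice at passage 1 were sequenced with a stranded mRNA kit in 4 groups of 3 libraries. They were left without stimulation, or treated for 2 h with C-178, with CMA, or with C-178 and CMA together, per the labels. Macrophages grown from bone marrow are a cultured model and not a tissue population. The labels give no doses and do not say whether the libraries of a group came from separate mice or cultures, so the p-values measure only the spread between these libraries, which may be technical. Values are normalised counts, that is reads per gene divided by a size factor of the library. Totals of 7.049 to 36.438 M reads per library were recovered from the table, with the deepest libraries (28.476 and 36.438 M) being replicate 1 of C-178 and of C-178 plus CMA. The 2 last unstimulated columns share 1 heading and are called a and b. The extraction text in the labels names MEF, a fibroblast culture, while the cell type label names macrophages. All 19 macrophage markers found in the table, such as the M-CSF receptor gene Csf1r and the lysozyme gene Lyz2, had unstimulated means above 100 normalised counts, against 5 of 12 fibroblast markers.

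STING is an adaptor of the endoplasmic reticulum that binds cyclic dinucleotides made in response to cytosolic DNA. It passes the signal to the kinase TBK1, which activates IRF3 and with it the interferon beta gene, and it also activates NF-κB. CMA binds mouse STING, and C-178 is a covalent inhibitor of it. In these libraries Ifnb1, the interferon beta gene, had a mean of 1755 ± 408 normalised counts with CMA and 59.4 ± 22.5 with both compounds (SD, n = 3 each), a log2 difference of -4.90 ± 0.36 (SE, adjusted p = 3.73e-06, limma). The NF-κB target Tnfaip3 was lower by 3.35 on the log2 scale (adjusted p = 1.03e-06, limma) and the chemokine gene Cxcl10 fell by 1.42 (adjusted p = 0.000581, limma). All 3 genes were still higher with both compounds than with C-178 alone. That difference was 8.71 ± 0.21 on the log2 scale for Cxcl10 (means 73.3 and 30810, adjusted p = 1.36e-11, limma). It was 4.27 ± 0.36 for Ifnb1 (means 2.21 and 59.4, adjusted p = 1.22e-06, limma) and 0.83 ± 0.22 for Tnfaip3 (means 219 and 404, adjusted p = 0.0123, limma). A CMA response was therefore still measured with C-178 present.

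The 7 genes encode proteins of different kinds. Kcnj2 is an inward rectifier potassium channel that holds the resting membrane potential. Gpr183 (EBI2) is a G protein-coupled receptor for oxysterols that guides immune cell migration. Pdgfb encodes the B chain of platelet-derived growth factor, a mitogen for mesenchymal cells. Nuak1 is a serine/threonine kinase related to AMPK and activated by LKB1. St8sia4 is a polysialyltransferase, which builds chains of sialic acid on cell surface proteins. Kctd12b is a paralog of Kctd12, whose product is an auxiliary subunit of GABA-B receptors. Utp14b is a retrogene copy of Utp14a, which encodes a component of the machinery that processes the small ribosomal subunit RNA.

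Promoters of 3 members are printed because these genes had the widest differences between the CMA response with and without C-178, Kcnj2 on one side and Gpr183 and Nuak1 on the other. Each window runs from 250 bases before to 50 bases after the RefSeq start (GRCm38.p6), 5′ to 3′ on the gene's strand. Capitals mark GGGCGG or its reverse complement, the letters of an Sp1-type box. The Kcnj2 window is chr11:111065914-111066213 on the plus strand, the Gpr183 window is chr14:121965144-121965443 on the minus strand, and the Nuak1 window is chr10:84440619-84440918 on the minus strand.
Kcnj2: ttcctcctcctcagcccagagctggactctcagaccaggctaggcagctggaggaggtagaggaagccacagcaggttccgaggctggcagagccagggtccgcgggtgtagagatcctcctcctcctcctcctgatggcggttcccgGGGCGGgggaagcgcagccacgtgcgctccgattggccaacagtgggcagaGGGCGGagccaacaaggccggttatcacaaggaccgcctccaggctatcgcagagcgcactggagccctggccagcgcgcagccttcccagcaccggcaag
Gpr183: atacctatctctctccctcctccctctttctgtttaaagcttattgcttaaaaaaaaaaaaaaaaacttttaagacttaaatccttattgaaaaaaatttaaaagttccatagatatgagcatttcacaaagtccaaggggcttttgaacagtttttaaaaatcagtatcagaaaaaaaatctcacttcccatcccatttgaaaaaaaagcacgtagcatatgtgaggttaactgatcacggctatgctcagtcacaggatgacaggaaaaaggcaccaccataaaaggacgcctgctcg
Nuak1: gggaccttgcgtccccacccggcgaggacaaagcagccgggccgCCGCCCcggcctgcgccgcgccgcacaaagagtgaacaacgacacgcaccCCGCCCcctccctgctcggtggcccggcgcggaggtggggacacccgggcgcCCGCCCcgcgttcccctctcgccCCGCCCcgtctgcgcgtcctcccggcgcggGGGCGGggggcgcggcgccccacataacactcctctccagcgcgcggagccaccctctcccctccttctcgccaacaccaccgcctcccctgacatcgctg
The Gpr183 window was AT-rich, with 35.3% G and C and 4 CpG dinucleotides. The Kcnj2 window had 66.7% and 18, and the Nuak1 window 77.0% and 41. Over 8728 promoters of tested genes the medians were 61.0% and 21.

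Promoter sequences were matched for 5 of the 7 members. GGGCGG, read on both strands, was found in Kcnj2 (2 matches), Nuak1 (5) and St8sia4 (1), and in 65.4% of the promoters of tested genes. The other letters searched on both strands were found in none of the 5 windows. They were TATAAA (in 6.85% of all windows), TGACGTCA (3.37%), TGANTCA (5.03%), GAAANNGAA (7.58%), TGTTTAC (2.41%), GAGGAAGT (3.46%) and the NF-κB motif (9.98%). A match or its lack describes these windows only.

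Without stimulation Pdgfb and Kctd12b had the highest levels per transcript length and Utp14b the lowest. On the scale of normalised counts per kilobase of transcript, the unstimulated means were 109 for Pdgfb (range 103 to 119), 101 for Kctd12b (84.2 to 122) and 74.4 for Kcnj2 (69.9 to 82.6). They were 63.8 for Nuak1 (59.3 to 66.3), 61.7 for St8sia4 (51.4 to 74.4), 60.1 for Gpr183 (55.3 to 64.2) and 18.2 for Utp14b (16.4 to 19.9). The ranges of Pdgfb and Kctd12b overlapped, as did those of Nuak1, St8sia4 and Gpr183, and that of Kcnj2 overlapped only St8sia4. With CMA the order was Kcnj2 at 20.0, Kctd12b at 17.5, Pdgfb at 14.4, St8sia4 at 8.27, Nuak1 at 5.04, Utp14b at 3.37 and Gpr183 at 1.76. With both compounds it was Kctd12b at 17.8, St8sia4 (range 9.75 to 15.5), Pdgfb at 12.2, Nuak1 at 7.93, Kcnj2 at 6.52, Gpr183 at 5.57 and Utp14b at 2.87. Some neighbours in the CMA order overlapped, since the lowest Kcnj2 library (15.4) was below the highest of Kctd12b (20.8) and of Pdgfb (17.5). The lowest Nuak1 library with CMA (3.63) was likewise below the highest of Utp14b (3.97). The lowest Kctd12b library with CMA (14.4) was also below the highest of Pdgfb (17.5). The remaining neighbours with CMA did not overlap. Pdgfb lay above St8sia4 (at most 8.66), St8sia4 above Nuak1 (at most 6.52), and Utp14b above Gpr183 (at most 2.42). With both compounds the highest Kcnj2 library (7.98) was above the lowest of Nuak1 (5.91), and the range of Kcnj2 lay within that of Gpr183 (2.1 to 8.41).

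**Figure D1:**
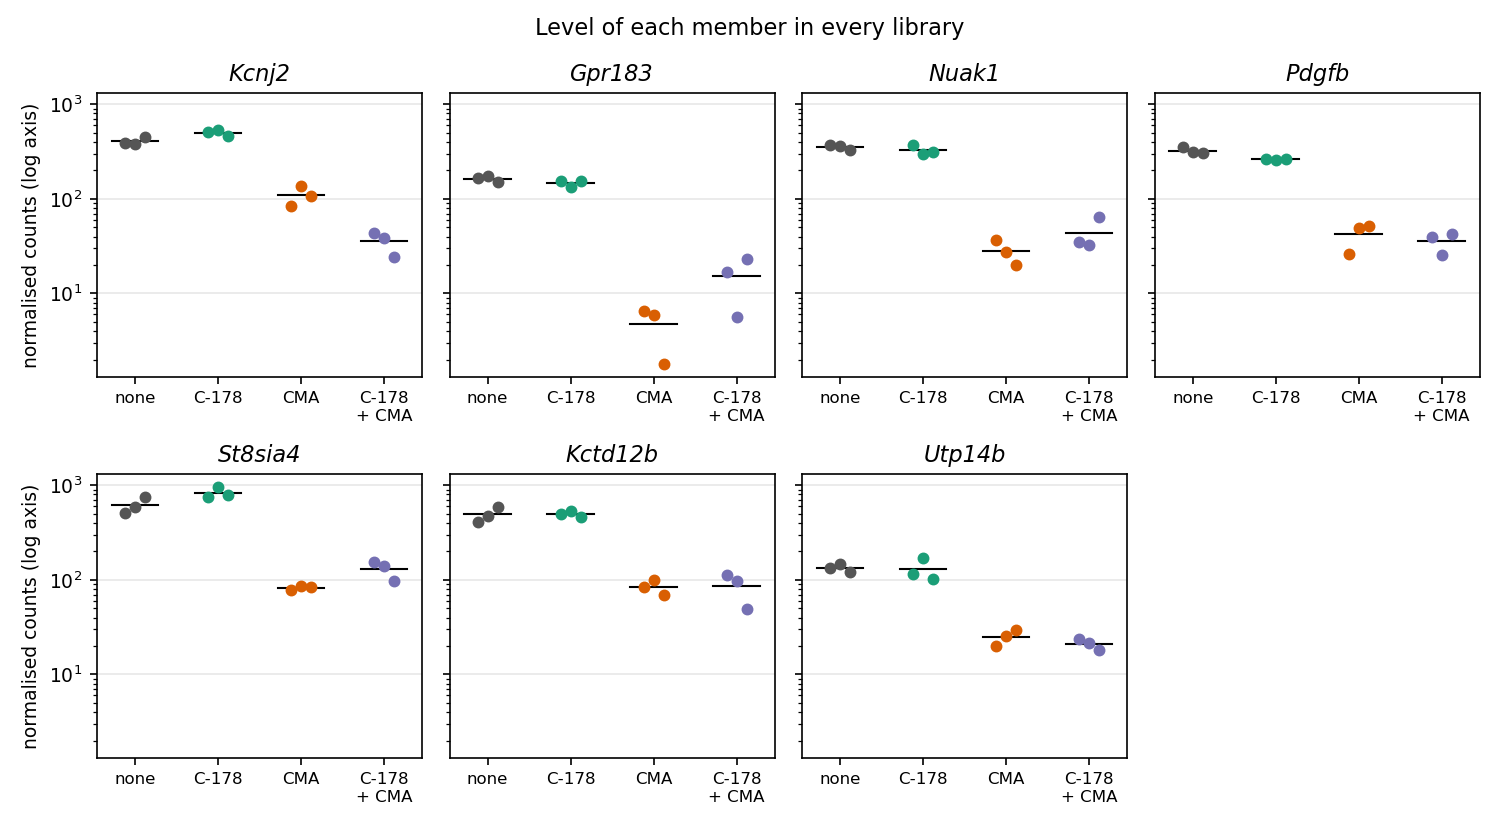
Level of each of the 7 genes in every library, in normalised counts on a log axis, in the 4 groups (none is no stimulation). Points are libraries (n = 3 per group) and lines are group means. In every panel the libraries with CMA, alone or with C-178, lie below those without it, and the lowest Kcnj2 values, 24.4 to 43.4, are in C-178 plus CMA.

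CMA alone lowered all 7 genes. Each passed the limma test in CMA against no stimulation, fitted on log2(value + 1) over all 12 libraries and 11440 tested genes, with adjusted p under 0.05 after Benjamini-Hochberg adjustment. In that comparison 17.9% of tested genes were called lower and 19.4% higher. Genes whose CMA libraries all lay below all unstimulated libraries made up 30.9% of those tested. The median log2 change was -2.87 over the members and -0.01 over all tested genes. All 7 passed the filter on low values (above 10 normalised counts in at least 3 libraries), for which their high level without CMA was enough. The same 7 were called on recovered reads by edgeR, with 2047 tested genes called lower, and by DESeq2, with 2031. In bulk RNA, fewer cells of a kind and less RNA per cell cannot be told apart. The summed level of 12 fibroblast markers was 1556 to 1662 normalised counts without stimulation, 1892 to 2226 with C-178, 2017 to 3776 with CMA and 890.8 to 2363 with both compounds, with no marker at 0 in all libraries. The part of these cells in the members' levels was not tested.

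Gpr183, the oxysterol receptor, fell furthest with CMA. Its levels were 165.7, 175.0 and 150.6 normalised counts without stimulation, 6.6, 5.9 and 1.8 with CMA, 153.8, 134.0 and 152.6 with C-178, and 16.9, 5.7 and 22.9 with both. The means were 164 ± 12.3 and 4.78 ± 2.58 (SD, n = 3 each), a 34.2-fold difference, and the log2 change was -4.96 ± 0.43 (SE, adjusted p = 7.16e-07, limma), which ranked 3 among the falls of tested genes. The 3 CMA libraries hold 8 Gpr183 reads in all, with an exact Poisson 95% interval of 3.45 to 15.8 that covers counting error only, so the size of this fall is loosely set. Against C-178 alone, the level with both compounds was 9.67-fold lower (log2 -3.37 ± 0.43). Libraries with both compounds held 70 reads (54.6 to 88.4), and their values overlapped those with CMA alone, since library 2 had 5.7. Of these reads 51 came from library 1, which had 36.438 M reads, against 7.126 to 7.826 M in the CMA libraries. On normalised counts the mean with both was 3.17 times the mean with CMA alone. The gene lies at chr14:121952551-121965195 on the minus strand, with 2 exons of which 1 is coding, inside Ubac2 on the other strand. The pair share no exonic bases in the annotation, and the sources used here do not say whether counting used strand. Ubac2, a ubiquitin-associated domain gene, did not pass the test (log2 -0.28 ± 0.15, adjusted p = 0.176, limma), nor did Gpr18, a G protein-coupled receptor gene 36770 bases away (0.33 ± 0.21, adjusted p = 0.233, limma).

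The enzymes around the Gpr183 ligand gave 1 called gene of 3 tested, of 8 listed. This was Ch25h, cholesterol hydroxylase, which makes the precursor of the ligand. Its levels were 6.8, 15.5 and 7.0 without stimulation and 234.0, 432.2 and 447.9 with CMA (log2 5.15 ± 0.55, adjusted p = 4.81e-06, limma). With both compounds Ch25h was at 235.7, 182.8 and 42.8, above C-178 alone by 3.97 ± 0.55 (adjusted p = 0.000119, limma). Thus the receptor mRNA was lower and the enzyme mRNA higher in both comparisons with CMA. Cyp7b1, the next enzyme of the route, was below the filter, with unstimulated values of 0.597 to 3.0. Hsd3b7, which degrades the ligand, changed by -0.60 ± 0.25 on the log2 scale and did not pass (adjusted p = 0.0695, limma). Cyp27a1, another sterol hydroxylase, did not pass either (0.49 ± 0.22, adjusted p = 0.102, limma).

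Kcnj2 was the member whose libraries with both compounds all lay below those with CMA alone. It measured 385.4, 380.4 and 449.8 normalised counts without stimulation, 504.5, 530.0 and 463.5 with C-178, 84.1, 136.2 and 106.5 with CMA, and 43.4, 38.6 and 24.4 with both. No library with C-178 plus CMA reached the lowest CMA library, and all 3 C-178 libraries lay above all unstimulated ones. For C-178 the fitted log2 change was 0.30 ± 0.22 (SE), and no share of tested genes stands beside that separation. CMA alone left 26.9% of the unstimulated mean (log2 -1.91 ± 0.22, adjusted p = 8.15e-06, limma), the smallest fall of the 7, ranked 230 among the falls of tested genes. CMA with C-178 left 7.11% of the C-178 mean (-3.81 ± 0.22), the largest fall of any tested gene, which is what the choice of members looked for. The mean with CMA alone was 3.07 times the mean with both. As a description, the log2 change with C-178 present minus that without it was -1.91 ± 0.30.

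Among 863 genes called lower by at least 2-fold with CMA, 7 (0.811%) had all libraries with both compounds below all CMA libraries, and 476 (55.2%) had them all above. Besides Kcnj2 those 7 were Fam43a, Zfp36l1, Cdr2, Cebpd, Ksr1 and Scd2, named after their values were seen. Zfp36l1, which encodes an RNA-binding protein that speeds decay of AU-rich mRNAs, had means of 1966 ± 264 without stimulation, 1294 ± 72.7 with C-178, 416 ± 67.2 with CMA and 235 ± 71.5 with both (SD, n = 3 each). Of the 7, Kcnj2 alone had a higher mean with C-178 than without stimulation. Over the 863 genes the median log2 change was -1.46 with CMA and -0.77 when C-178 was present, and 303 (35.1%) were at or below -1 in the latter. These 863 were picked on CMA against no stimulation and share its libraries with the overlap counts, so the counts are a description.

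**Figure D2:**
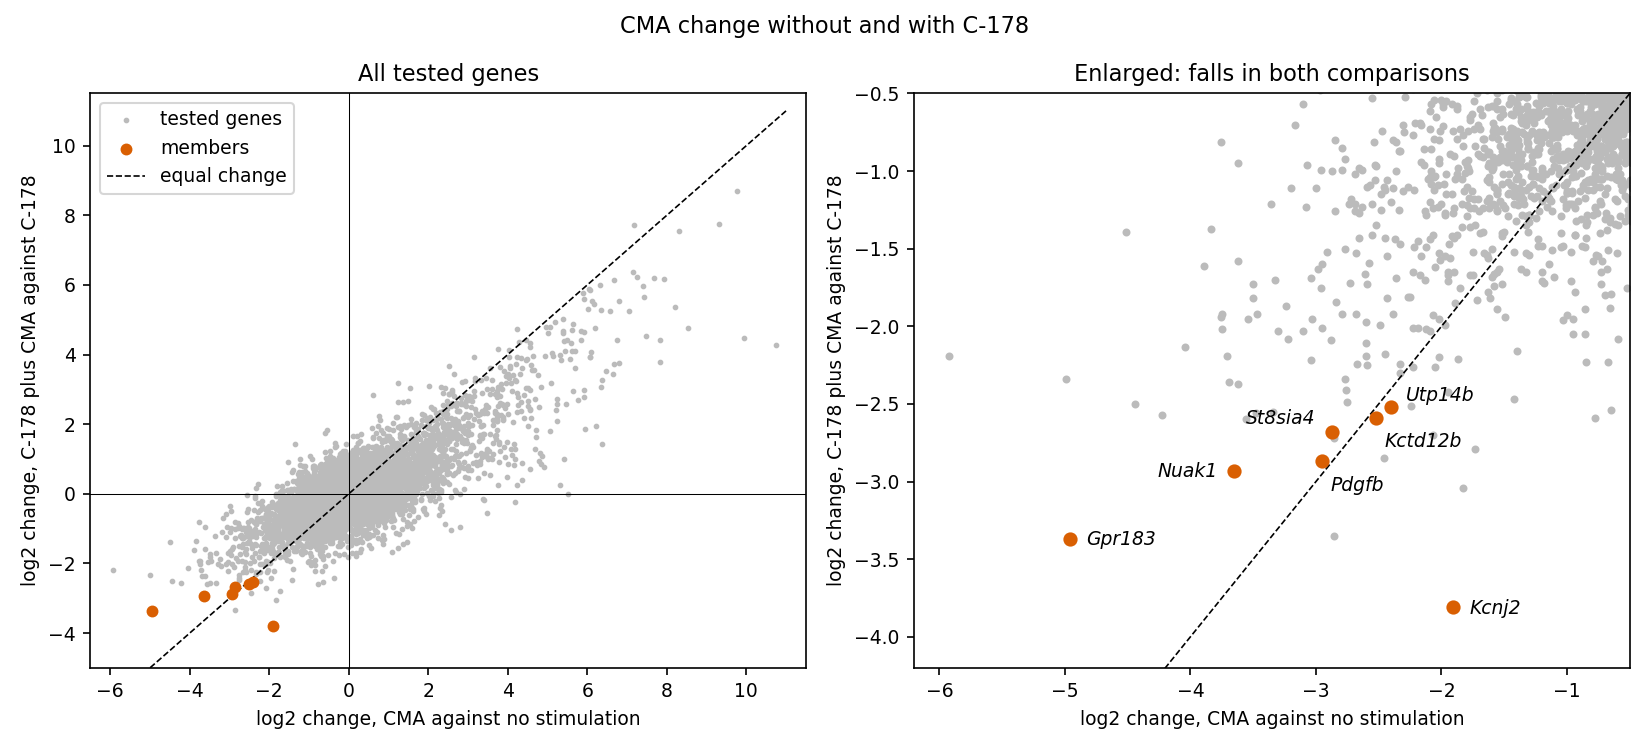
Log2 change with CMA against no stimulation (horizontal) and log2 change with C-178 plus CMA against C-178 alone (vertical) for 11440 tested genes, with the lower left enlarged on the right. Kcnj2 lies below the dashed line of equal change (-1.91 and -3.81), Gpr183 and Nuak1 lie above it, and the other 4 members lie near it.

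Kcnj2 lies at chr11:111066164-111076821 on the plus strand, with 2 exons of which 1 is coding. Its neighbour Kcnj16, another inward rectifier 38196 bases away, was below the filter, with values of 0.0 to 6.1 in the 12 libraries. Of 34 potassium channel genes listed, 10 were tested, and CMA raised 2 and lowered 4, with a median log2 change of -0.99 against -0.01 over all genes. Kcnk13, a potassium channel of the tandem pore family, fell by 1.99 ± 0.20 (adjusted p = 2.4e-06, limma) and its relative Kcnk6 fell by 1.82 ± 0.23 (adjusted p = 2.81e-05, limma). With C-178 present 1 channel gene was higher and 3 lower (median -0.54), Kcnk6 among them at -1.13 ± 0.23 (adjusted p = 0.00292, limma). In that comparison 13.5% of all tested genes were called higher and 12.6% lower. The number called lower, 1440, became 885 without C-178 library 2 and 600 when only the 6 libraries compared entered the fit.

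Nuak1 lost more than 10-fold with CMA and somewhat less with C-178 present. Its levels were 368.7, 364.8 and 329.6 without stimulation, 36.3, 27.6 and 20.2 with CMA, 373.6, 301.1 and 310.9 with C-178, and 35.1, 32.8 and 64.2 with both. The CMA fall was 12.6-fold (log2 -3.65 ± 0.25, adjusted p = 7.44e-08, limma). Against C-178 alone, the level with both was 7.46-fold lower (-2.93 ± 0.25), with library 3 the highest at 64.2, and libraries 1 and 2 within the CMA range. The gene spans chr10:84370905-84440597 on the minus strand, with 7 exons. Its nearest annotated neighbours, 1500009L16Rik and 4930463O16Rik, were under the filter.

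The close relative Nuak2 moved differently. It had means of 498 ± 14.9 without stimulation and 363 ± 47.4 with CMA (log2 -0.46 ± 0.13, adjusted p = 0.0112, limma), and 454 ± 31.9 with C-178 and 618 ± 57.1 with both (0.44 ± 0.13, adjusted p = 0.022, limma), SD with n = 3 each. So Nuak2 was higher, and Nuak1 lower, in the comparison with C-178 present. Of 20 tested AMPK-related kinases and activators, of 23 listed, CMA raised 5 and lowered 9 (median -0.28). Sik1, a salt-inducible kinase, fell by 1.46 ± 0.15 (adjusted p = 3.71e-06, limma), and Cab39l, an LKB1 scaffold gene, rose by 0.77 ± 0.12 (adjusted p = 0.000173, limma). With C-178 present 2 rose and 6 fell (median -0.13).

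Pdgfb gave nearly equal falls in the 2 comparisons. Its levels were 349.7, 310.5 and 301.8 without stimulation, 26.4, 49.3 and 51.4 with CMA, 265.7, 260.5 and 261.5 with C-178, and 39.1, 25.7 and 42.8 with both. All C-178 libraries were below all unstimulated ones, with means of 263 ± 2.76 and 321 ± 25.5 (SD, n = 3 each). The fitted log2 change was -0.28 ± 0.25 (SE), and no share of tested genes stands beside this separation. CMA left 13.2% of the unstimulated mean (log2 -2.95 ± 0.25, adjusted p = 4.56e-07, limma), and with C-178 13.7% of the C-178 mean was left (-2.87 ± 0.25). Pdgfb lies at chr15:79995874-80014977 on the minus strand, with 7 exons of which 6 are coding. The nearest genes were Cbx7, a Polycomb subunit gene 24755 bases away, which also fell (log2 -1.26 ± 0.24, adjusted p = 0.000852, limma), and Rpl3, a ribosomal protein gene, which did not pass (0.04 ± 0.17, adjusted p = 0.87, limma). The microRNA gene Mir7213 inside Pdgfb was listed at 0 in all libraries.

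None of the 12 tested PDGF and VEGF ligand and receptor genes, of 16 listed, was called lower with CMA, and 4 were called higher (median 0.31, or 0.08 under quantile normalisation). Pdgfa, the A chain, had means of 42.5 ± 2.46 and 41.7 ± 1.57 (SD, n = 3 each; log2 -0.03 ± 0.30, adjusted p = 0.956, limma). Kdr, a VEGF receptor, rose by 2.48 ± 0.30 (adjusted p = 1.65e-05, limma), and Nrp2, a co-receptor, rose by 0.81 ± 0.20 (adjusted p = 0.00489, limma). With C-178 present 2 genes rose and 1 fell (median -0.28). Platelet-lineage and endothelial cells also make Pdgfb. The summed level of 5 megakaryocyte markers was 364.8 to 410.0 without stimulation, 277.2 to 313.8 with CMA, 301.1 to 433.9 with C-178 and 246.0 to 562.3 with both. That of 6 endothelial markers, Kdr among them, was 930.5 to 1082, 1241 to 1281, 899.4 to 1144 and 542.4 to 1228 in the same order. Their part in the Pdgfb level was not tested.

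St8sia4 fell to a near-constant level with CMA. It measured 515.4, 594.1 and 745.9 without stimulation, 77.5, 86.8 and 84.4 with CMA, 745.5, 950.1 and 796.2 with C-178, and 155.5, 138.5 and 97.8 with both. CMA left 13.4% of the unstimulated mean (log2 -2.87 ± 0.19, adjusted p = 4e-08, limma), and with C-178 15.7% of the C-178 mean was left (-2.68 ± 0.19). All libraries with both compounds lay above all CMA libraries, and the ratio of means was 1.58. Such a separation was common, at 476 (55.2%) of the 863 genes called lower by at least 2-fold with CMA. The share over all tested genes is not given here. The mean with C-178 alone, 831 ± 107, was above the unstimulated mean of 618 ± 117 (SD, n = 3 each), but the lowest C-178 library, 745.5, was below the highest unstimulated one. The gene lies at chr1:95587682-95667571 on the minus strand, with 4 exons, and its neighbour Fam174a did not pass (-0.13 ± 0.15, adjusted p = 0.551, limma).

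Of 19 tested genes on the sialic acid list, of 29 listed, CMA raised 6 and lowered 4 (median -0.10). Beside genes of supply and transfer, the list holds the sialidase genes Neu1 and Neu3, as well as Ncam1 and Nrp2. Neu3 (1.48 ± 0.35, adjusted p = 0.00385, limma) and Nrp2, given above with the PDGF and VEGF genes, were among the 6 raised. St3gal1 fell by 1.35 ± 0.14 (adjusted p = 4.6e-06, limma) and St6gal1 fell by 1.20 ± 0.15 (adjusted p = 1.75e-05, limma). Both encode transferases that cap glycans with single sialic acids. With C-178 present 5 genes, Neu3 among them, were higher and 2 lower, with a median of 0.04, or -0.02 under quantile normalisation. The 2 lower ones were again St3gal1 at -1.18 ± 0.14 (adjusted p = 3.71e-05, limma) and St6gal1 at -1.19 ± 0.15 (adjusted p = 4.11e-05, limma).

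Kctd12b fell to like shares in both settings. Its levels were 408.2, 478.3 and 590.3 without stimulation, 84.1, 100.7 and 69.7 with CMA, 498.4, 539.0 and 457.7 with C-178, and 113.7, 97.1 and 48.9 with both. CMA left 17.2% (log2 -2.52 ± 0.26, adjusted p = 3.71e-06, limma), and with C-178 17.4% was left (-2.59 ± 0.26). Library 3 was the lowest of its group with both compounds, and the range of that group enclosed the CMA range. The gene lies at chrX:153685154-153696391 on the minus strand, with 2 exons of which 1 is coding, and its neighbours Cypt3 and Spin2c were under the filter.

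The paralog Kctd12 was far more abundant, at 11140 ± 783 normalised counts without stimulation and 7043 ± 458 with CMA (SD, n = 3 each; log2 -0.66 ± 0.15, adjusted p = 0.00285, limma). With C-178 present its change was -0.84 ± 0.15 (adjusted p = 0.00091, limma). The sources used here do not say how counting divided reads between paralogs, so the 2 values may not be fully separate. Of 15 tested KCTD genes, of 21 listed, CMA raised 3 and lowered 5 (median -0.09), and with C-178 present 2 were higher and 2 lower (median -0.10). Kctd6 rose by 0.99 ± 0.17 (adjusted p = 0.000276, limma) and Kctd21 fell by 0.95 ± 0.15 (adjusted p = 0.000242, limma). Both encode adaptors of cullin ubiquitin ligases.

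Utp14b was the least abundant member per length without stimulation. It measured 134.6, 146.9 and 121.5 without stimulation, 19.8, 25.7 and 29.4 with CMA, 115.1, 168.6 and 103.2 with C-178, and 23.9, 21.4 and 18.3 with both. CMA left 18.6% (log2 -2.40 ± 0.23, adjusted p = 1.5e-06, limma), and with C-178 16.4% was left (-2.52 ± 0.23), with overlapping ranges. The 3 CMA libraries hold 41 reads (Poisson 95% interval 29.4 to 55.6) against 615 without stimulation. These sums are not scaled for depth, which was 7.126 to 7.826 M reads with CMA and 13.907 to 17.449 M without stimulation. On normalised counts the fall was 5.39-fold. The gene lies at chr1:78658038-78671512 on the plus strand, with 3 exons of which 1 is coding, and overlaps Acsl3 on the same strand. They share 244 of the 7679 exonic bases of Utp14b.

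Acsl3, which encodes an acyl-CoA synthetase, fell as well, though less. Its levels were 732.9, 804.3 and 732.6 without stimulation, 390.6, 388.8 and 376.3 with CMA, 644.7, 916.9 and 777.4 with C-178, and 211.5, 298.4 and 307.1 with both. The log2 change was -0.97 ± 0.16 with CMA (adjusted p = 0.000265, limma) and -1.52 ± 0.16 with C-178 present (adjusted p = 1.04e-05, limma). Reads of the shared bases cannot be assigned to 1 of the pair from these files. Utp14a, the X-linked relative, had means of 634 ± 14.9 and 600 ± 56.7 (SD, n = 3 each; -0.08 ± 0.20, adjusted p = 0.773, limma).

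Of 46 genes listed for the processome, the machinery to which Utp14a belongs, all were tested. The list also holds other ribosome assembly factors, such as Ltv1 and Sdad1. CMA raised 12, these 2 among them, and lowered 1 (median 0.21), and most did not pass the test. Noc4l, a processome component, rose by 2.16 ± 0.19 (adjusted p = 1.01e-06, limma) and Wdr43, another, rose by 1.68 ± 0.13 (adjusted p = 3.15e-07, limma). The lower one was Wdr3 at -0.66 ± 0.13 (adjusted p = 0.000944, limma). With C-178 present 7 were higher and 1, again Wdr3, lower at -0.53 ± 0.13 (adjusted p = 0.00761, limma). Over all 7 lists 124 genes were tested, with CMA raising 32 and lowering 23, beside 19.4% and 17.9% of all tested genes.

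**Figure D3:**
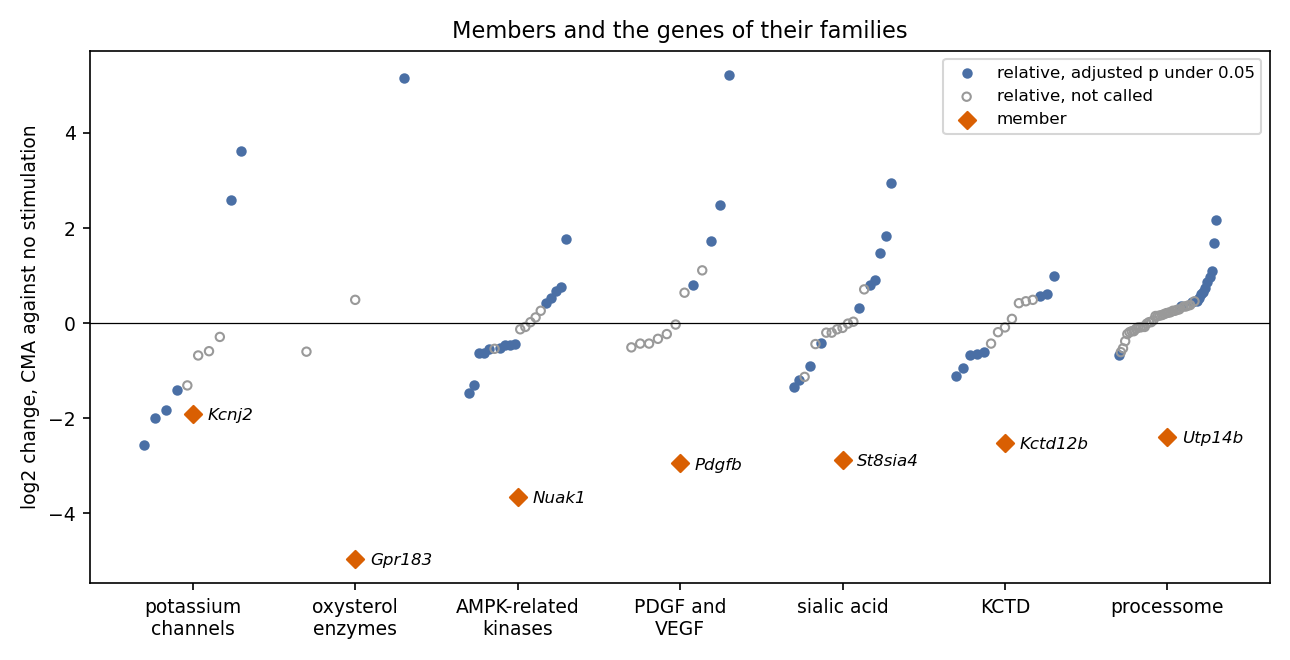
Log2 change with CMA against no stimulation for the 7 members (diamonds) and for the tested genes of each related list (circles, filled where adjusted p was under 0.05 by limma). In 6 of the 7 lists the member lies below every tested relative, and Kcnj2 lies below all but 2 channel genes.

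The share of mRNA that remained with CMA differed among the members, and for Kcnj2 it differed most between the settings. Without C-178 the shares were 2.92% for Gpr183, 7.91% for Nuak1, 13.2% for Pdgfb, 13.4% for St8sia4, 17.2% for Kctd12b, 18.6% for Utp14b and 26.9% for Kcnj2. With C-178 they were 10.3%, 13.4%, 13.7%, 15.7%, 17.4%, 16.4% and 7.11% in the same order. The 2 comparisons share no library, and the second is the one the members were chosen on. The log2 difference between both compounds and CMA alone was 1.42 ± 0.43 for Gpr183, 0.61 ± 0.25 for Nuak1, 0.62 ± 0.19 for St8sia4, -0.04 ± 0.26 for Kctd12b, -0.21 ± 0.25 for Pdgfb, -0.21 ± 0.23 for Utp14b and -1.60 ± 0.22 for Kcnj2. It is given without a test, since it shares libraries with the comparison the members were chosen on.

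**Figure D4:**
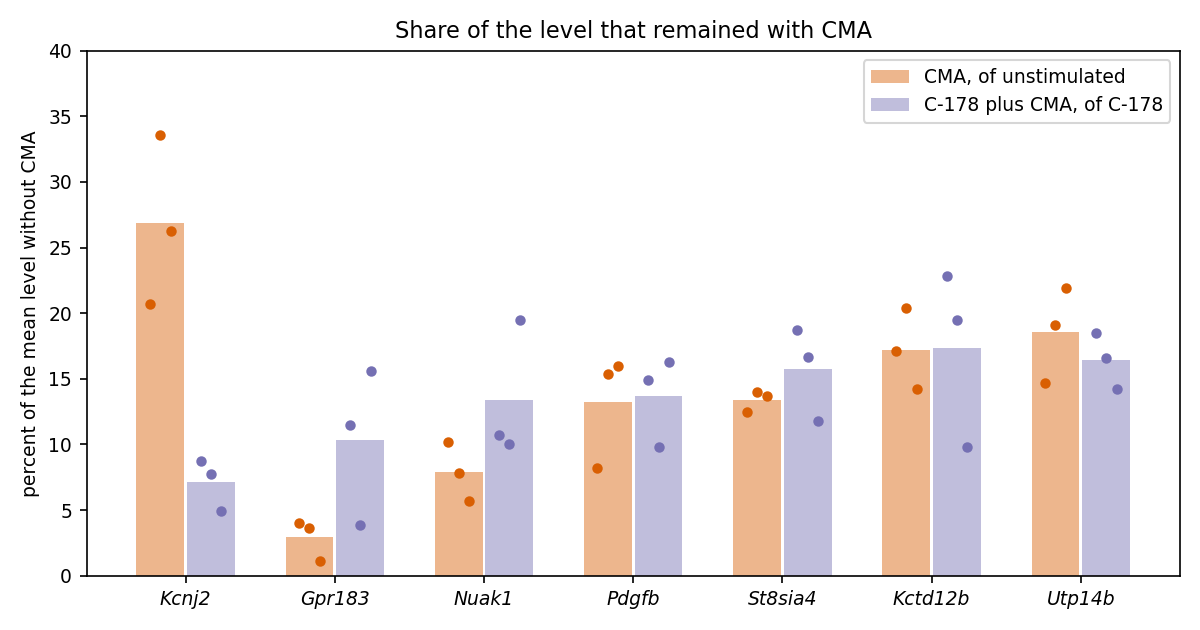
Percent of the mean level without CMA that remained with CMA, for CMA relative to unstimulated libraries and for both compounds relative to C-178 alone. Bars are means and points are the 3 libraries of each group; Kcnj2 is the only member whose points do not overlap, at 20.7% to 33.6% and 4.9% to 8.7%.

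With C-178 alone, the levels of the members stayed near the unstimulated ones in size. The log2 change against no stimulation was 0.30 ± 0.22 for Kcnj2, 0.43 ± 0.19 for St8sia4, 0.03 ± 0.26 for Kctd12b, -0.09 ± 0.23 for Utp14b, -0.11 ± 0.25 for Nuak1, -0.16 ± 0.43 for Gpr183 and -0.28 ± 0.25 for Pdgfb. Groups did not overlap for Kcnj2, which was higher, and for Pdgfb, which was lower. Complete separation of 3 against 3 libraries has an exact permutation p of 0.1. The share of all tested genes that separated in this comparison is not given here, so these separations have no background beside them. These values are a description, since the C-178 libraries took part in the choice.

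With no threshold stated, the place of the members among all genes was read from the ranks of the comparison they were chosen on. By log2 change they held the places 1, 2, 5, 6, 11, 13 and 19 of the falls. The places between belonged to genes such as D930048N14Rik at 3 (-3.35) and the prokineticin receptor gene Prokr1 at 4 (-3.04). Just past Utp14b (-2.52) came Zfp36l1 (-2.51). The members are therefore a selection from the largest falls and not all of them.

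A feature that the choice did not use is the 3′ UTR. All 7 members had one longer than the median of 1162 bases over 10656 tested genes with an annotated coding transcript. The lengths were 1408 bases for Pdgfb, 1483 for Gpr183, 3341 for Nuak1, 3659 for Kctd12b, 3751 for Kcnj2, 4783 for Utp14b and 8952 for St8sia4. The number of ATTTA pentamers, the core of AU-rich elements, was 3, 2, 4, 10, 4, 11 and 37 in the same order, against a median of 2. Per kilobase it was below the median of 1.38 in Gpr183, Nuak1 and Kcnj2 (1.35, 1.20 and 1.07) and highest in St8sia4 (4.13).

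The nonamer TTATTTATT was found on the transcript strand in the 3′ UTR of 3 members and in that of 8.16% of tested genes. The longest annotated coding transcript of each gene was used. That share is not matched for length, and a longer 3′ UTR has more places for a match. By 3′ UTR length the 3 members were at percentiles 90.3 (Kcnj2), 87.2 (Nuak1) and 99.5 (St8sia4) of the tested genes. The nonamer sites are printed because AU-rich elements are known binding places of decay proteins of the Zfp36 family. Capitals mark the nonamer. They lie at chr11:111075777-111075805 (Kcnj2), chr10:84371141-84371169 (Nuak1) and chr1:95619608-95619636 (St8sia4) in GRCm38, each on the strand of its gene.
Kcnj2: tgttcttctgTTATTTATTtcagcatgga
Nuak1: ttgtctttttTTATTTATTggtctgaaag
St8sia4: caaatttattTTATTTATTtaaagtgaga
A match is a description of the letters and not of binding. Transcript lengths of the members ran from 2724 bases (Gpr183) to 10027 bases (St8sia4), against a median of 3172.5 bases over the tested genes. Their GC content ran from 36.1% in St8sia4, at percentile 0.282 of the tested genes, to 60.0% in Pdgfb, at percentile 95.9.

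The genes most like the members over the 12 libraries had the same pattern of 2 high and 2 low groups. By Pearson correlation of log2 values with the mean of the standardised members, they were Chsy1, a chondroitin synthase gene (r = 0.992), Zswim6 (0.990), 8430427H17Rik (0.990), the costimulatory receptor gene Cd28 (0.989) and the sorting nexin gene Snx18 (0.988). Cd28 had means of 586 without stimulation, 559 with C-178, 124 with CMA and 139 with both. The single best partner was Bhlhe40, a transcriptional repressor gene, for Kcnj2 (0.983), 6430548M08Rik for Gpr183 (0.989), Fam78a for Nuak1 (0.992), Zswim6 for Pdgfb (0.988), Cpeb2, an mRNA-binding protein gene, for St8sia4 (0.988), Usp28, a deubiquitinase gene, for Kctd12b (0.986) and the sialyltransferase gene St3gal1 for Utp14b (0.986). Bhlhe40 shared the lower level with both compounds, with means of 83.7 with CMA and 54.6 with both. Each member's correlation with the mean of the other 6 was lowest for Kcnj2 (0.894) and highest for Utp14b (0.981). The 12 points share the size factors and the group means, so these correlations describe the pattern and carry no test.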

How the data were processed

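The values are signal per gene and library, deposited by the authors as normalised counts in 1 table for 12 libraries. The build mm10 and the tools limma 3.18.13 and Bowtie2 2.2.1 are listed, with no role, per the submitters' processing notes. Not given in the sources used here are the tool that counted reads, its annotation and its use of strand. Division by size factors was inferred from the header. Within a tolerance of 0.01, 100% of values were whole multiples of the column's smallest step, and these multiples were used as reads. For these reads edgeR called 4282 genes in CMA against no stimulation.

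Genes above 10 normalised counts in at least 3 libraries were tested (11440). Log2(value + 1) was fitted with limma 3.58.1 (R 4.3.3; lmFit, eBayes with trend) over all 12 libraries, with Benjamini-Hochberg adjustment over all genes, and checked on simulated data. A fold change on this scale understates the change of low genes. edgeR 4.0.16 and DESeq2 1.42.0 were alternatives, as were other pseudocounts, filters, scalings, a fit of only the 2 groups and leaving out each library. Exact permutation of 3 against 3 libraries cannot give a p below 0.1. The members and lists were chosen with earlier results of these data known.

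Named genes were the members, the 2 called genes per list with the largest change and a mean of at least 100, fixed close relatives, neighbours, best correlated genes, 3 genes that answer CMA, and genes ranked beside a member. Wdr3, Cyp27a1, Neu1, Neu3, Ncam1, Ltv1, Sdad1 and 6 genes in the count of 7 were named after their values were seen. Coordinates and transcripts came from the GENCODE annotation of GRCm38, and promoters from RefSeq (GRCm38.p6).

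Same-numbered libraries of C-178 and C-178 plus CMA deviated together (correlations 0.45, 0.43 and 0.26), so their numbers were taken to pair them. Deviations were taken from group means of 3 libraries, so these 3 correlations are not independent. Replicate 1 was the deepest library in both groups (28.476 and 36.438 M reads). The part of depth in this likeness was not tested. Correlations by number were weaker elsewhere, at -0.14, 0.18 and -0.16 between CMA alone and both compounds. Between C-178 and CMA they were -0.04, 0.06 and -0.08. The pairing was used only as the replicate block of an alternative fit. Adjusted p-values printed for both compounds relative to C-178 alone came from the main fit, which left the pairing out. No shared batch is named in the labels. Marker sums not given above ran from 675.4 to 1409 normalised counts for neutrophils, 698.3 to 1118 for lymphoid cells, 71.4 to 154.8 for dendritic cells and 3.056 to 23.86 for mast cells, and 565900 to 749500 for macrophages. Tables were read with pandas 2.3.3 and numpy 2.4.6, and plots drawn with matplotlib 3.10.9, under Python 3.11.15.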

Additional observations from a re-analysis of the deposited data

How the results depend on the processing

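All 7 members stayed called lower in CMA against no stimulation in each of 15 alternatives, and the largest adjusted p of any member was 0.000115 (Kcnj2, limma). The members' log2 changes there ranged from -5.21 to -4.14 for Gpr183 and from -2.08 to -1.74 for Kcnj2. Their median in the comparison of both compounds with C-178 was -3.01 to -2.73 when single libraries were left out. With the replicate block it was -2.87, as in the main fit. With complete pairs a block cannot change the log2 difference, so this value is no check. The sign of the small differences between both compounds and CMA alone changed for Pdgfb (-0.51 to 0.01) and Kctd12b (-0.28 to 0.32) when single libraries were left out, and for C-178 against no stimulation it changed for Kctd12b (-0.10 to 0.17) and Utp14b (-0.29 to 0.06). No paired analysis was possible for CMA against no stimulation because the unstimulated columns share fewer than 2 numbers with the others.

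Counts over all genes moved more. With only the 2 groups compared in the fit, 3075 genes were called lower with CMA in place of 2047. In the comparison of both compounds with C-178 the same change gave 1338 called genes in place of 2988, 600 lower in place of 1440, and 17 genes of the related lists in place of 35. The replicate block, added to that fit, gave 3023, 1460 and 33. Leaving out single libraries gave 1941 (without C-178 library 2) to 4181 called genes, 885 (without C-178 library 2) to 2067 lower, and 24 to 41 list genes. For CMA against no stimulation leaving out gave 3315 to 3885 called genes, 1536 to 1810 lower and 42 to 50 list genes. The cause was not tested. Quantile normalisation moved the median of all tested genes in CMA against no stimulation to -0.11. Depth limits Gpr183 most, with 8 reads in the CMA libraries.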

Other observations

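Some genes of the related lists that were too low to be named by rule also rose with CMA. Pgf, which encodes placental growth factor, had means of 2.71 normalised counts without stimulation, 133 with CMA, 3.68 with C-178 and 21.4 with both (CMA against no stimulation, log2 5.22 ± 0.47, adjusted p = 1.05e-06, limma). Kcnab1, a beta subunit of voltage-gated potassium channels, had means of 78.5 with CMA and 32.2 with both compounds (3.61 ± 0.37, adjusted p = 3.31e-06, limma). St8sia1, which builds the sialic acid pairs of gangliosides, had means of 4.70 and 40.9 (2.94 ± 0.54, adjusted p = 0.000618, limma), opposite in direction to St8sia4. These 3 genes were chosen after their values were seen.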
